A study of Mus musculus with 14 samples.

Results

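Transcripts of most mammalian genes end where the nascent RNA is cleaved and a poly(A) tail is added, and many genes own several such poly(A) sites, so that a cell can end the same transcript in more than 1 place. Described here are 1286 autosomal poly(A) sites that were seen in all 14 mouse libraries of a 3P-seq series and had no sizeable same-strand neighbour; they were not assigned to genes. 3P-seq yields sequence tags from the 3′ ends of polyadenylated transcripts. Intervals of the same strand that overlapped or touched were merged over the libraries into 159969 sites, of which 155772 lay on autosomes. A site was kept where it had 20 or more tags in each of the 14 libraries and where no other merged site of its strand within 5000 nt held 5% or more of its summed tags. Of the 2241 autosomal sites with that many tags everywhere, 1286 passed the neighbour criterion and 955 did not. Those 955, called here the shared sites with a neighbour, are set beside the 1286 isolated sites, as are the 23856 sites with enough tags to be tested across the 12 tissue libraries. The isolated sites were thus selected on their tag numbers in every library and on their neighbours' share, and presence everywhere is not a finding.

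For each of 6 tissues (kidney, liver, lung, heart, muscle and white adipose tissue) there was 1 library from miR-22 knockout mice and 1 from wild-type mice. mESC, mouse embryonic stem cells, and 3T3, a fibroblast line of the mouse, gave 1 library each. The labels give the background 129S5/SvEvBrd to all 14 libraries, the cell lines included, and name the mutant allele miR-22D without saying more about it or about the age of the animals. The design text states that no group had a biological replicate, and whether tissues share an animal is not in the labels, so p-values measure the spread between libraries and tissues and not between animals. In such bulk samples fewer cells of a type and less RNA per cell cannot be told apart. Positions are given in mm9, counted from 1, and each site is named by its chromosome, the 3′ end of its main interval and its strand, since the annotation at hand belongs to another build and gene names were not assigned.

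A gene with a single poly(A) site gives transcripts with 1 kind of 3′ UTR, the stretch that microRNAs and RNA-binding proteins read. Where a site is the only one of its gene, the tag number follows the abundance of the transcript, whereas at genes with several sites it also follows the choice between them. miR-22 is a microRNA known for its high level in heart and skeletal muscle, and it represses transcripts whose 3′ UTRs pair with its seed. Both mature strands of miR-22 are shown because the labels name it as the gene knocked out; its loss was not checked in these data. They are from RefSeq (GRCm38.p6), 5′ to 3′, with the seed (bases 2 to 8) in capitals.
mmu-miR-22-5p: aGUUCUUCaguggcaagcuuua
mmu-miR-22-3p: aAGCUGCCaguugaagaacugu

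Library size ran from 2036838 tags (knockout adipose tissue) to 6010465 tags (knockout lung). The isolated sites took between 22.5% (knockout liver) and 49.9% (3T3) of the nuclear tags of a library, with a median of 32.4%, and the shared sites with a neighbour took between 5.94% and 14.1%. The median isolated site had between 74.5 tags in knockout muscle and 690.7 tags in knockout lung. A site at the minimum of 20 tags has an exact Poisson 95% interval of 12.2 to 30.9 tags, which covers counting error only, since the tags carry no molecular identifiers.

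Levels are given as CPM, tag counts relative to the library's size after TMM scaling. The median level of the isolated sites was 107.6 CPM in 3T3 and 104.7 CPM in mESC, and it lay between 49.9 and 70.9 CPM in the 12 tissue libraries. The tags were concentrated on few sites. In 3T3 the 40 highest isolated sites held 50% of the set's tags, and in knockout lung the 137 highest did. A single site, on chromosome 15, held 19.0% of the set's tags in 3T3, whereas the top site of knockout heart, on chromosome 17, held 2.33%.

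**Figure D1:**
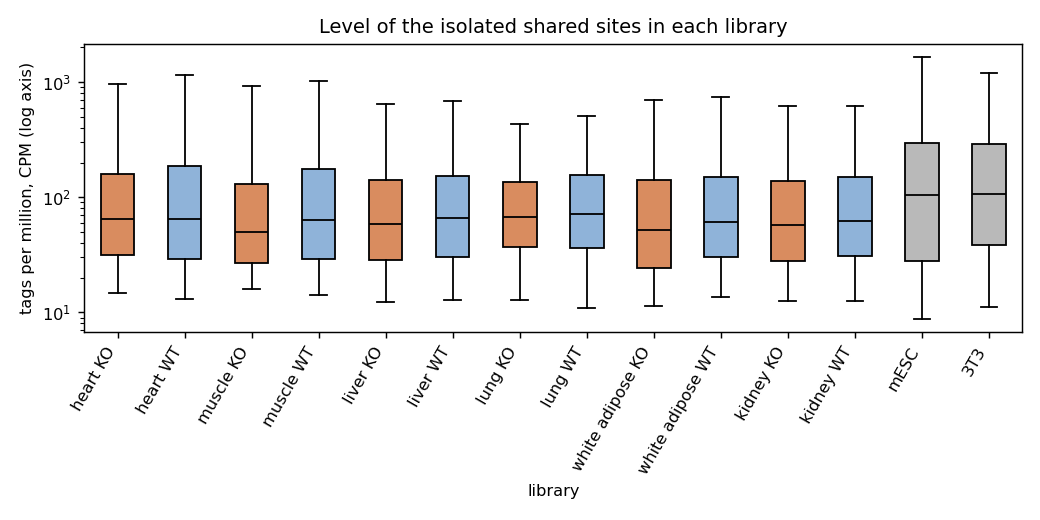
Level of the 1286 isolated shared sites in each of the 14 libraries, in CPM on a log axis. Boxes span the middle quartiles with the median as a line, whiskers reach the 5th and 95th percentiles, and the medians run from 49.9 CPM in knockout muscle to 107.6 CPM in 3T3 (knockout libraries orange, wild-type libraries blue, cell lines grey).

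The site of highest mean level over the 6 tissues, mESC and 3T3 lay on chromosome 10 at 79174712 (plus strand). The knockout libraries had 4115 CPM in heart, 1284 in lung, 1359.6 in kidney, 3739.97 in muscle, 1598 in adipose tissue and 1423 in liver. The wild-type libraries had 7805 CPM in heart, 2445 in lung, 1791 in kidney, 4941 in muscle, 1821 in adipose tissue and 1916 in liver. Its level was 7902 CPM in mESC and 4650.3 CPM in 3T3. All 14 libraries lay above 1000 CPM, with mESC and wild-type heart highest. The site next in level, on chromosome 7 at 54110995 (plus), was more uneven. In knockout and wild-type heart it had 2475 and 3685 CPM, in lung 516 and 702, in kidney 1635 and 1474, in muscle 18979.6 and 19723, in adipose tissue 3689.5 and 3870.2, and in liver 1250.1 and 1954 CPM. mESC had 5479.8 CPM and 3T3 3319 CPM. Both muscle libraries stood far above the rest, and both lung libraries were lowest. On chromosome 15 at 76736741 (plus), mESC had 15319 CPM and 3T3 13962 CPM, against 847 to 2658 CPM in the tissue libraries, so the cell lines and the tissues did not overlap. The chromosome 9 site at 79603214 (minus) had 5169 and 8198 CPM in knockout and wild-type heart and 844 and 670.2 CPM in knockout and wild-type lung. The remaining 6 of the 10 highest sites had mean levels between 10.90 and 11.16 on the log2 CPM scale, and 1 of them, on chromosome 16 at 90226566 (plus), was nearly even. The knockout libraries had 1316 CPM in heart, 1539.6 in lung, 2179.7 in kidney, 1591 in muscle, 4225 in adipose tissue and 3333 in liver. The wild-type libraries had 2165.7 CPM in heart, 2008 in lung, 2051 in kidney, 1844 in muscle, 3436 in adipose tissue and 4146 in liver. Its level was 1479 CPM in mESC and 1620.2 CPM in 3T3. Its highest and lowest libraries were 3.21-fold apart, against 38.2-fold at the chromosome 7 site.

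The spread of each site was described by the SD of its log2 CPM (prior count 1) over 8 contexts, namely the mean of the 2 libraries of each of 6 tissues, and mESC and 3T3. Being present everywhere did not mean being even. The median SD was 1.21 for the isolated sites, 1.01 for the shared sites with a neighbour and 1.44 for all tested sites. The middle 90% of the isolated sites ran from 0.59 to 2.21. The highest and the lowest context of an isolated site differed by 11.6-fold in the median, against 7.78-fold for the shared sites with a neighbour and 17.6-fold for all tested sites. The range stayed within 4-fold at 129 isolated sites (10.03%), at 165 shared sites with a neighbour (17.3%) and at 1842 of all tested sites (7.72%). It stayed within 2-fold at 2 isolated sites (0.16%), beside 0.63% of the shared sites with a neighbour and 0.31% of all tested sites. It exceeded 16-fold at 485 isolated sites (37.7%), beside 21.2% and 53.5%. The tag minimum in every library bounds how low a member can fall, so these values are given as a description without a test.

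Levels also differed between the sets, with medians of 71.0 CPM for the isolated sites, 40.1 CPM for the shared sites with a neighbour and 2.94 CPM for all tested sites. Within 4 level classes that each held a like number of isolated sites, from low to high, the median SD was 1.01, 1.24, 1.31 and 1.29 at isolated sites and 0.90, 1.11, 1.10 and 1.23 at the 473, 242, 153 and 86 shared sites with a neighbour in the same classes. The isolated sites were thus higher in each class, by 0.07 in the uppermost and by 0.11 to 0.21 in the others. The neighbour criterion used tags summed over libraries, and at a given mean log2 CPM an uneven site has more of them. The difference is therefore not independent of how the sites were chosen, and nothing is read from it. Over the 6 tissues alone the median SD of the isolated sites was 0.80, and within a tissue the SD between the knockout and the wild-type library was 0.42. The within-tissue SD was the larger at 160 isolated sites (12.4%). This share was 17.6% for the shared sites with a neighbour and 13.7% for all tested sites. The within-tissue SD is between single libraries and the SD over tissues is between means of 2 libraries, so they are unlike measures. The SD over the 6 knockout libraries and the SD over the 6 wild-type libraries had a Spearman correlation of 0.78 across the 1286 sites, which share tissues and depth. Among the 128 least variable sites of each genotype 41 were common (32.0% of each list), and among the 128 most variable 85 were (66.4% of each).

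**Figure D2:**
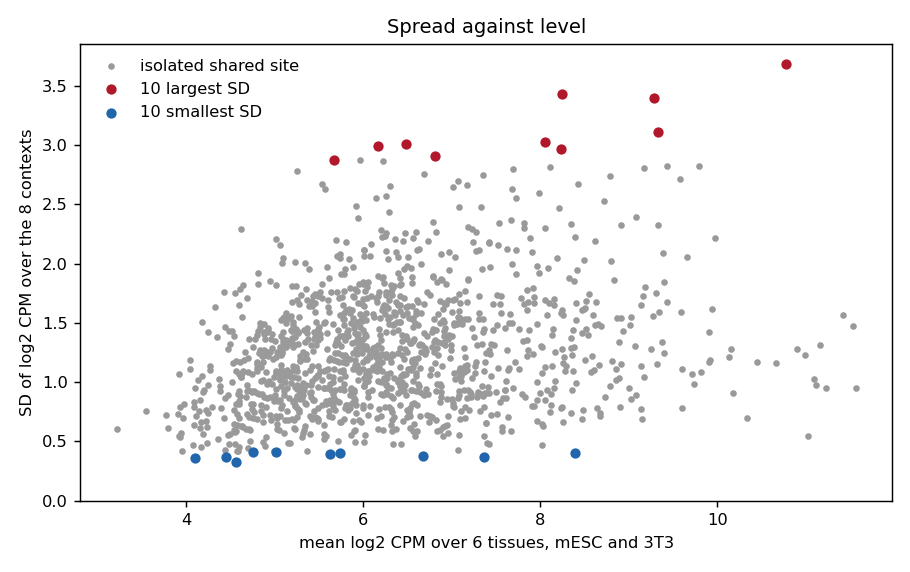
Spread against level for the 1286 isolated shared sites. Each point is a site, the x axis is its mean log2 CPM and the y axis the SD of log2 CPM over 6 tissues, mESC and 3T3, and the 10 sites of largest (red) and of smallest SD (blue) run from 2.87 to 3.68 and from 0.33 to 0.41.

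The site of smallest spread lay on chromosome 8 at 125728168 (minus), with an SD of 0.33. In knockout and wild-type heart it had 19.4 and 33.9 CPM, in lung 19.9 and 21.1, in kidney 36.8 and 17.9, in muscle 29.5 and 32.4, in adipose tissue 34.9 and 24.6, and in liver 17.5 and 14.9 CPM. mESC had 23.8 CPM and 3T3 18.1 CPM. No tissue stood apart there, and its highest and lowest libraries were 2.47-fold apart. Of the 10 most even sites, 7 had mean levels under 100 CPM. The chromosome 9 site at 72597654 (plus, SD 0.41) had the highest mean level of the 10. The knockout libraries had 378 CPM in heart, 314 in lung, 236 in kidney, 433 in muscle, 417 in adipose tissue and 308 in liver. The wild-type libraries had 239 CPM in heart, 379 in lung, 245 in kidney, 492 in muscle, 736 in adipose tissue and 228 in liver. Its level was 328 CPM in mESC and 288 CPM in 3T3. The chromosome 5 site at 145908939 (plus, SD 0.37) came next in level. In knockout and wild-type heart it had 186 and 279 CPM, in lung 125 and 203, in kidney 211 and 207, in muscle 136 and 197, in adipose tissue 108 and 113, and in liver 188 and 228 CPM. mESC had 148 CPM and 3T3 127 CPM. The wild-type library was the higher in 5 of 6 tissues at the chromosome 5 site, and no genotype difference was called there (edgeR quasi-likelihood adjusted p = 0.872). At low levels an even profile over contexts did not always mean even libraries. The chromosome 10 site at 79621111 (plus, SD 0.36) had 31.8 CPM in knockout heart and 9.14 CPM in wild-type heart, and the chromosome 19 site at 4156794 (minus, SD 0.41) had 66.3 CPM in knockout adipose tissue and 27.3 CPM in wild-type adipose tissue.

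The largest spread, an SD of 3.68, was at the chromosome 15 site at 78760623 (plus). The knockout libraries had 1394 CPM in heart, 682 in lung, 222 in kidney, 3375 in muscle, 11521 in adipose tissue and 16.3 in liver. The wild-type libraries had 2161 CPM in heart, 562 in lung, 335 in kidney, 3184 in muscle, 13308 in adipose tissue and 24.7 in liver. Its level was 3658 CPM in mESC and 101001 CPM in 3T3. It was the top isolated site of 3T3 and lowest in liver, its highest and lowest libraries were 6214-fold apart, and the 2 libraries of each tissue stayed close. The next, on chromosome 8 at 71430829 (plus, SD 3.43), was high in adipose tissue and heart and low in 3T3. In knockout and wild-type heart it had 4498 and 4130.04 CPM, in lung 285 and 160.1, in kidney 426 and 659, in muscle 871 and 479.8, in adipose tissue 7309 and 11494, and in liver 76.3 and 146 CPM. mESC had 26.7 CPM and 3T3 8.16 CPM. The chromosome 17 site at 66428780 (minus, SD 3.39) was high in heart and muscle and lowest in the cell lines. The knockout libraries had 6776 CPM in heart, 461 in lung, 1339 in kidney, 5049.5 in muscle, 1373 in adipose tissue and 739.6 in liver. The wild-type libraries had 13109 CPM in heart, 518 in lung, 1718 in kidney, 8945 in muscle, 1552 in adipose tissue and 973 in liver. Its level was 14.2 CPM in mESC and 26.7 CPM in 3T3. The chromosome 3 site at 107815178 (minus, SD 3.11) had 10.3 CPM in mESC and 59.8 CPM in 3T3, against 766 to 7995 CPM in the tissue libraries, with both liver libraries highest. The chromosome 6 site at 17291322 (plus, SD 3.03) had 2334 and 4712 CPM in knockout and wild-type adipose tissue, 2992 CPM in 3T3, and 6.25 and 9.48 CPM in knockout and wild-type liver. The chromosome 5 site at 31233617 (plus, SD 2.99) was high in kidney and liver, with 1881 and 1556 CPM in knockout and wild-type kidney and 1104 and 1266 CPM in knockout and wild-type liver, and low in mESC (6.61 CPM) and 3T3 (6.26 CPM). A different shape was seen at the chromosome 10 site at 93046139 (minus, SD 2.87), whose SD over the 6 tissues alone was 0.44: it had 488 CPM in mESC and 2678 CPM in 3T3, against 10.3 to 46.6 CPM in the tissue libraries.

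**Figure D3:**
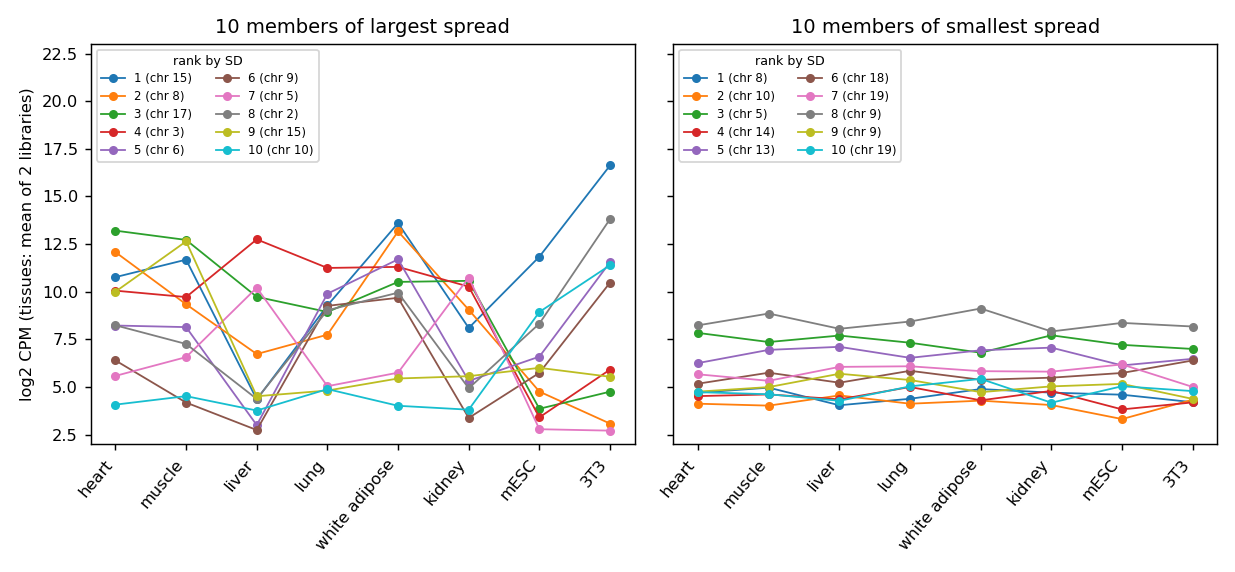
Profiles of the 10 isolated sites of largest and of smallest SD, as log2 CPM in 6 tissues (mean of 2 libraries), mESC and 3T3. Lines are sites, named by rank and chromosome; on the left they cross over a wide range, with the chromosome 15 site at 4.34 in liver and 16.62 in 3T3, and on the right they stay nearly level.

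The highest context was most often a cell line, and the lowest was most often mESC, whereas 3T3 was lowest less often than 4 of the tissues, namely adipose tissue, muscle, lung and kidney. mESC was the highest of the 8 contexts at 370 isolated sites (28.8%) and the lowest at 262 (20.4%). 3T3 was highest at 294 (22.9%) and lowest at 138 (10.7%). Among the tissues, heart was highest at 138 sites and lowest at 97, muscle at 127 and 170, liver at 116 and 126, lung at 99 and 156, adipose tissue at 88 and 182, and kidney at 54 and 155. Each line had 1 library and each tissue 2, and the part this has in the counts of extremes was not tested. Without mESC the median SD was 1.05 and without 3T3 it was 1.13, whereas leaving out any single tissue gave 1.19 to 1.23. Across the 1286 sites the levels of mESC and 3T3 had a Spearman correlation of 0.68, those of heart and muscle 0.79, and those of liver and kidney 0.79. The lowest was 0.12, between mESC and adipose tissue. These correlations are across sites, which share libraries and scaling, and are descriptions.

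Relative to the tissues, the isolated sites tended to be high in the cell lines. The median difference from the mean of the 6 tissues was 0.55 in mESC and 0.68 in 3T3 on the log2 CPM scale, and for the shared sites with a neighbour it was 0.67 and 0.64. The medians over all tested sites were negative, at -0.90 and -0.83. Tested sites were chosen on the 12 tissue libraries alone and could be absent in a line. The isolated sites and the shared sites with a neighbour also needed the tag minimum in each line. The contrast in sign is therefore not independent of how the sites were chosen, and nothing is read from it. With libraries scaled to their total nuclear tags, the medians of the isolated sites were 0.13 in mESC and 0.37 in 3T3, so their direction held and their size depended on the scaling. At 172 isolated sites (13.4%) mESC lay more than 4-fold above the highest tissue library, beside 6.3% of all tested sites. At 45 (3.50%) it lay more than 4-fold below the lowest, beside 31.5%. For 3T3 these counts were 118 (9.18%), beside 4.25%, and 25 (1.94%), beside 32%. Among the shared sites with a neighbour, which needed the same tag minimum, mESC lay above at 9.63% and below at 1.78%. In that set 3T3 lay above at 5.55% and below at 0.94%. With total nuclear tags the isolated sites above the tissues numbered 103 in mESC and 70 in 3T3. Both lines lay above all 12 tissue libraries at 338 isolated sites (26.3%), beside 10.5% of tested sites. They lay below all of them at 113 (8.79%), beside 13.1%. For the shared sites with a neighbour these shares were 23.8% and 7.12%, near those of the isolated sites. The tag minimum keeps members from being absent in a line, so it limits the low counts and bears on the members' medians. The shares of tested sites given beside the counts come from sites without that minimum in the lines. With 1 library per line no test was made, and a line's growth in culture and its cell type cannot be told apart.

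The 5 isolated sites furthest above the tissues in mESC reached 1247 to 7237 CPM there. The first lay on chromosome 7 at 13616379 (plus), with 7237 CPM in mESC, 354 CPM in 3T3 and 20.1 to 93.2 CPM in the tissue libraries, a log2 difference from the tissue mean of 7.45. The chromosome 4 site at 46485525 (plus) had 4649 CPM in mESC and 438 CPM in 3T3, against 15.2 to 108 CPM in the tissue libraries. The chromosome 2 site at 125083466 (plus) had 3169.6 CPM in mESC and 498 CPM in 3T3, against 8.03 to 73.6 CPM in the tissue libraries. At all 3, mESC was highest, 3T3 came next and no tissue library overlapped with either line. Furthest below in mESC were the chromosome 3 and chromosome 17 sites described above, at -7.48 and -7.09, and the chromosome 1 site at 122009866 (minus), which had 22.4 CPM in mESC, against 217 to 12512 CPM in the tissue libraries.

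In 3T3 the largest excess was at the chromosome 10 site at 93046139, at 7.21, followed by the chromosome 15 site at 78760623. The chromosome 2 site at 13504452 (plus) had 14369 CPM in 3T3, 319.95 CPM in mESC and 12.7 to 1155 CPM in the tissue libraries. The chromosome 11 site at 62418309 (plus) had 4440.2 CPM in 3T3 and 1548 CPM in mESC, against 26.8 to 94.2 CPM in the tissue libraries, so it was high in both lines. The lines also parted. At the chromosome 1 site at 155756787 (plus) 3T3 had 5.98 CPM and mESC 602 CPM, against 203 to 2062 CPM in the tissue libraries. At the chromosome 18 site at 50355915 (plus) 3T3 had 6.26 CPM and mESC 105 CPM, both below the 144 to 1111 CPM of the tissue libraries.

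Among the 12 tissue libraries, 1028 isolated sites (79.9%) differed between at least 2 of the 6 tissues (edgeR quasi-likelihood F test, adjusted p under 0.05), beside 80.6% of all tested sites. That share is near the background, and nothing is read from it. Few members belonged to 1 tissue. Both muscle libraries lay more than 4-fold above the other 10 tissue libraries at 6 isolated sites, beside 1.97% of tested sites, and more than 4-fold below at 2, beside 15.2%. The counts were 5 above and 3 below in lung, beside 2.07% and 6.94%, and 3 above and 6 below in liver, beside 4.93% and 10%. They were 4 above and 0 below in adipose tissue (beside 1.5% and 9.74%), 3 and 0 in kidney (beside 3.29% and 6.83%), and 1 and 0 in heart (beside 1.42% and 10.4%). The tag minimum sets these low counts in part.

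The members furthest from the other 5 tissues show the shape of these exceptions. In muscle the chromosome 15 site at 97962877 (plus) had 5819 and 6983 CPM in the knockout and wild-type libraries, against 699 and 1495 CPM in heart and 17.8 to 57.7 CPM in the 8 libraries of the other tissues. Muscle and heart stood apart from the other tissues there, with muscle above heart. The chromosome 8 site at 47292527 (minus) was also highest in muscle, with 15359 and 19248 CPM, and next in heart, with 4153 and 3635 CPM, against 26.9 and 30.4 CPM in liver. The chromosome 18 site at 85049254 (plus) was lower in muscle than in any other tissue, with 66.3 and 69.7 CPM, against 442 to 4888 CPM in the other 10 tissue libraries. Both cell lines were lower still, with 55.7 CPM in mESC and 37.1 CPM in 3T3.

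In liver the chromosome 2 site at 103294160 (minus) had 8151 and 6659.5 CPM, against 166 to 1185 CPM in the other 10 tissue libraries. The chromosome 2 site at 35163411 (plus) was low in liver and kidney alike, with 32.5 and 21.7 CPM in liver and 92.5 and 115 CPM in kidney, against 1668 to 13198 CPM in the other 8 tissue libraries. In adipose tissue the chromosome 11 site at 120668390 (minus) had 12361 and 14628 CPM, against 37.8 to 999 CPM in the other 10, and the same site was the furthest below the other tissues in heart, with 37.8 and 85.6 CPM, close to the 56.5 and 63.4 CPM of kidney. The chromosome 7 site at 148645984 (plus) had 6469 and 4714 CPM in adipose tissue, against 55.6 to 430.02 CPM in the other 10. In kidney the chromosome 3 site at 154286143 (plus) had 1834 and 1968 CPM, against 16.5 to 484 CPM, with liver next. In lung the chromosome 7 site at 87856474 (minus) had 497 and 767 CPM, against 11.1 to 69.6 CPM in the other 10, and mESC overlapped with lung there at 596 CPM. The largest excess in heart, at the chromosome 11 site at 115359345 (minus), was 336 and 603 CPM, against 149 and 193 CPM in muscle and 6.25 to 37.2 CPM in the other 8. There 3T3 had 182.5 CPM and mESC 91.8 CPM.

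The knockout of miR-22 was compared with wild type over the 6 tissues in a model with a term for each tissue. Of the 1286 isolated sites 3 were called higher in knockout tissues, beside 0.277% of all tested sites, and 0 were called lower, beside 0.0671% (edgeR quasi-likelihood test, adjusted p under 0.05). In either direction 0.344% of all tested sites were called. At an unadjusted p under 0.05 there were 93 isolated sites (7.23%, beside 6.97%). DESeq2's Wald test called 2 isolated sites higher, beside 0.293%, and 6 lower, beside 0.203%, both of the 12293 sites to which it gave an adjusted p. Without the muscle pair, edgeR called 1 isolated site higher. Of the 93, 17 were higher and 76 lower in knockout tissues, beside 3.83% and 3.14% of all tested sites at that unadjusted p. This split turned with the scaling. With libraries scaled by their total counts 57 isolated sites were higher and 16 lower, beside 8.42% and 1.12% of all tested sites. The median log2 fold change of all tested sites was then 0.16 instead of -0.02. Under TMM scaling the median over the isolated sites was -0.14. It differed from that of all tested sites by -0.12 under TMM scaling, and by -0.11 with total counts.

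The strongest difference was at the chromosome 13 site at 51943840 (plus). It had 322 CPM in knockout liver and 39.8 CPM in wild-type liver, 140.3 and 33.1 CPM in knockout and wild-type kidney, and 245 and 96.9 CPM in knockout and wild-type adipose tissue. In muscle it had 1029.7 CPM in the knockout and 557 CPM in the wild-type library, in lung 67.9 and 34.4 CPM, and in heart 55.6 and 29.9 CPM. The knockout library was higher in 6 of 6 tissues, by 1.85-fold to 8.08-fold, while the knockout and wild-type ranges over tissues overlapped, with muscle high in both. The fitted log2 fold change was 1.51 ± 0.29 (SE; edgeR quasi-likelihood adjusted p = 0.00341). mESC had 19 CPM and 3T3 37.5 CPM there.

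At the chromosome 10 site at 59412417 (minus) the knockout libraries had 249 CPM in heart, 85.1 in lung, 56.1 in muscle, 39 in adipose tissue, 38.4 in kidney and 22.3 in liver. The wild-type libraries had 25 CPM in heart, 33.3 in lung, 12.5 in muscle, 37.7 in adipose tissue, 28.6 in kidney and 6.77 in liver. The difference was greatest in heart, at 9.97-fold, and 1.03-fold in adipose tissue. The log2 fold change was 1.46 ± 0.33 (SE; edgeR quasi-likelihood adjusted p = 0.0168), and the call was lost without the heart pair (adjusted p = 0.181) without the muscle pair (0.0807) or without the tissue term.

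The chromosome 18 site at 36825568 (plus) had 53.6 CPM in knockout muscle and 11.1 CPM in wild-type muscle, 364 and 92.8 CPM in knockout and wild-type liver, and 43.7 and 38.2 CPM in knockout and wild-type lung. In adipose tissue it had 129 CPM in the knockout and 24.6 CPM in the wild-type library, and in kidney 75 and 19.1 CPM. Heart went the other way, with 15.7 CPM in the knockout and 27.7 CPM in the wild-type library. The knockout library was thus higher in 5 of 6 tissues, and the log2 fold change was 1.37 ± 0.33 (SE; edgeR quasi-likelihood adjusted p = 0.0401). This call did not hold without the muscle, the liver or the kidney pair, with adjusted p between 0.111 and 0.271, under DESeq2's Wald test (adjusted p = 0.0756), with DESeq2's size factors in the edgeR fit (adjusted p = 0.0606) or without the tissue term.

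**Figure D4:**
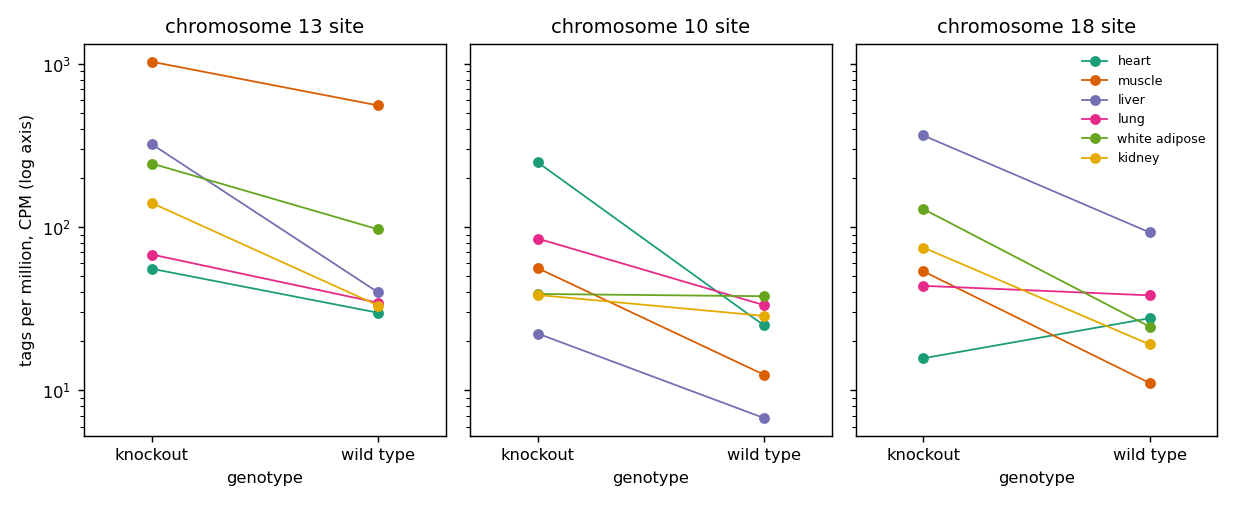
Level of the 3 isolated sites called higher in miR-22 knockout tissues, in CPM on a log axis, with the knockout library on the left and the wild-type library of the same tissue on the right, joined by a line. The knockout point is higher in 6 of 6 tissues at the chromosome 13 and chromosome 10 sites, at the latter by 1.03-fold in adipose tissue. At the chromosome 18 site it is higher in 5 of 6, and heart goes the other way.

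The isolated sites of smallest p among those lower in knockout tissues missed the edgeR threshold. At the chromosome 6 site at 113284123 (minus) the knockout libraries ran from 13.1 to 107 CPM and the wild-type libraries from 18.7 to 209 CPM, with the knockout library lower in 6 of 6 tissues and a log2 fold change of -1.06 ± 0.29 (SE; edgeR adjusted p = 0.113). At the chromosome 14 site at 102095329 (plus) it was -0.97 ± 0.28 (SE; edgeR adjusted p = 0.139), and at the chromosome 3 site at 108229492 (minus) -0.91 ± 0.26 (SE; edgeR adjusted p = 0.166), each with 6 of 6 tissues in the same direction. All 3 were among the 6 that DESeq2's Wald test called lower, with adjusted p of 0.0365, 0.00432 and 0.00198.

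Within single tissues, where each genotype had 1 library and no test was possible, 2-fold differences were counted among sites with 20 tags in both libraries. In adipose tissue 107 isolated sites were 2-fold higher in the knockout library and 228 lower, beside 10.4% and 13.2% of all such sites. In heart the counts were 100 higher and 104 lower (beside 6.81% and 9.3%), in muscle 31 and 129 (beside 3.82% and 9.39%), and in kidney 54 and 97 (beside 5.73% and 7.43%). In lung they were 48 and 45 (beside 6.6% and 5.62%) and in liver 21 and 40 (beside 3.88% and 4.31%). Scaling to total nuclear tags raised the median knockout over wild-type ratio of the isolated sites in each tissue. On the log2 scale it rose by 0.45 in heart, 0.23 in muscle, 0.14 in lung, 0.12 in liver, 0.08 in kidney and 0.04 in adipose tissue. The side with more isolated sites changed in heart, muscle and liver. The heart counts were then 245 higher and 16 lower, beside 1126 and 159 of all 6398 such sites. The muscle counts were 71 and 69 (beside 354 and 254 of 5027), and the liver counts 31 and 23 (beside 442 and 254 of 8422). In the other 3 the side with more isolated sites was the same under both scalings. Adipose tissue had 117 higher and 207 lower (beside 727 and 769 of 6361). Kidney had 63 and 71 (beside 649 and 545 of 9116), and lung 65 and 28 (beside 1142 and 486 of 12520). In lung the higher sites thus went from 51.6% to 69.9% of the isolated sites with a 2-fold difference.

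The main 3′ ends of the isolated sites were steady over libraries. In each library a site's main 3′ end was the 3′ edge of its interval with most tags. Intervals were up to 36 nt wide, and how tags lie within them is not given. A shared edge need therefore not be a shared cleavage nucleotide. At 733 isolated sites (57.0%) the main end was the same position in all 14 libraries, and at 1114 (86.6%) the outermost ends lay within 10 nt. Among the shared sites with a neighbour these shares were 47.4% and 78.8%. Counting the libraries with at least 50 tags at a site, 822 of 1285 isolated sites (64.0%) had 1 end, against 59.1% of the shared sites with a neighbour, whose level was lower. The gap between the sets was thus smaller among well-covered libraries. The main interval held 99.7% of an isolated site's tags in the median. A span over 50 nt was seen at 43 sites, with a greatest span of 266 nt. The ends within a merged site were not counted as separate sites here, so a span over 50 nt can hold a pair of close poly(A) sites.

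**Figure D5:**
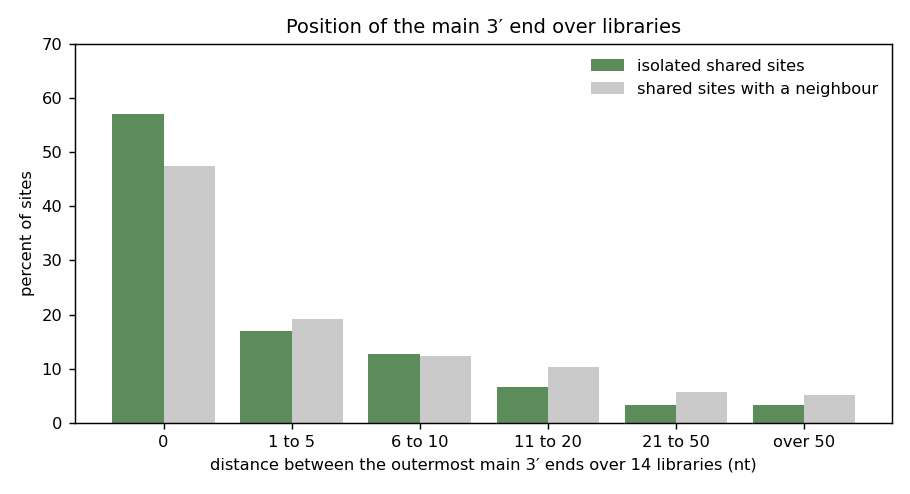
Distance between the outermost main 3′ ends of a site over the 14 libraries, in nt, as the percent of the 1286 isolated sites (green) and of the 955 shared sites with a neighbour (grey). The ends coincided at 57.0% of the isolated sites and at 47.4% of the shared sites with a neighbour, and the isolated sites have the smaller share in each class over 10 nt.

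Among the 172 isolated sites whose ends spanned more than 10 nt, the main ends of the knockout and the wild-type library of a tissue lay within 10 nt of each other in 83.8% of cases, close to the 81.0% between libraries of different tissues, so agreement within a tissue was near that between tissues. A site's named position is the end of its interval with most tags in any 1 library, so a single library sets it. At 46 isolated sites both libraries of at least 1 tissue had the same main end more than 10 nt from the named position. At 16 of these it was so in a single tissue. In some cases 1 cell line alone ended at the named position. This was 3T3 at the chromosome 10 site at 17844937 (plus), with mESC and all tissue libraries 11 nt downstream. It was mESC at the chromosome 6 site at 97133948 (minus), with 3T3 and all tissue libraries 52 nt upstream. The longest shift of a tissue, with the other 12 libraries within 10 nt of the named position, was at the chromosome 8 site at 47292527. This is the muscle site above. Both heart libraries had their main end 174 nt upstream. That interval held 54.9% of the site's 12408 tags in knockout heart and 49.1% of its 8150.4 tags in wild-type heart. The muscle libraries had the most tags at this site and set its named position, so their agreement with it was fixed by the definition. At the chromosome 4 site at 59054755 (plus) both muscle libraries ended 13 nt downstream while the other 12 ended at the named position. The site had 42 tags in knockout muscle and 75 tags in wild-type muscle. At the chromosome 2 site at 80340670 (minus) both adipose libraries ended 11 nt upstream, with 97.3% of 983.9 tags in the knockout and 98.3% of 1678 tags in the wild-type library. There mESC and 3T3 ended 6 nt upstream, and the other tissue libraries at the named position. Shifts of 11 and 13 nt are smaller than the widest interval, 36 nt.

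Isolation as chosen here is a matter of share, not of emptiness. Only 25 isolated sites had no other merged site of their strand within 5000 nt. The median number of such sites was 5. Their summed tags, as a share of the member's own, had a separate median of 1.25% and reached 16.8%. On the opposite strand, a site with at least 5% of the member's tags lay within 1000 nt of 115 isolated sites (8.94%), and downstream of the member at 92 of them (80%). For the shared sites with a neighbour the share was 7.75%. Members were found on all 19 autosomes and made up between 4.03% of the tested sites on chromosome 3 and 7.86% on chromosome 17.

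The 2 strands were unequally represented. The plus strand held 805 of the 1286 isolated sites (62.6%) and 59.7% of the shared sites with a neighbour, against 51.9% of the autosomal tested sites and 50.4% of all autosomal merged sites. Over all autosomal sites the plus strand held 59.7% of the tags, from 53.4% to 66.4% by library. Isolated sites of the 2 strands had like medians of summed tags, 5079 on the plus and 5104 on the minus strand, and like median SDs of 1.18 and 1.24. A single main end in all libraries was seen at 59.4% of those on the plus and 53.0% of those on the minus strand. The cause of the inequality was not tested.

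The limits of the rule cut through a continuum. Just inside the tag minimum, among others, the chromosome 1 sites at 60042189, 72441525 and 157915946 (all plus) had 20 tags in their poorest library, and just outside, the chromosome 4 site at 155114755 (minus) had 19.9, the chromosome 7 site at 134124012 (plus) 19.6 and the chromosome 13 site at 55129645 (minus) 19.5. For the neighbour share, the chromosome 12 site at 70287688 (plus) was just inside with 4.98% and the chromosome 5 site at 122774288 (plus) just outside with 5.02%. For the window, the chromosome 8 site at 109903408 (plus) was just inside, with its nearest sizeable neighbour at 5036 nt, and the chromosome 2 site at 173604856 (plus) just outside, at 4980 nt.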

How the data were processed

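The data are 3P-seq libraries made from total RNA of mouse tissues, mESC and 3T3, per the labels' protocols. Per the submitters' processing notes, CASAVA 1.7 called the bases and Bowtie aligned the reads to mm9. Neither the version of Bowtie nor the grouping of reads into intervals is given in the sources used here. For each interval the authors deposited an unscaled estimated count of its tags, and between 1.21% and 5.79% of the values in a library are not whole numbers. Track lines in 13 of the 14 files state mm9 with an offset of 1; positions are printed without it and may therefore lie 1 nt from a browser's.

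Intervals were merged and sites chosen as the report states, in Python 3.11.15. Counts were summed per site, rounded to whole numbers and analysed in R 4.3.3 with edgeR 4.0.16: filterByExpr with tissue as group and a minimum count of 10, TMM scaling, and a quasi-likelihood fit to the 12 tissue libraries with terms for tissue and genotype. The 23856 sites kept include all 1286 isolated sites, and p-values were adjusted by Benjamini-Hochberg over all of them, with 5 residual degrees of freedom. CPM levels used TMM over 14 libraries, and log2 CPM a prior count of 1. DESeq2 1.42.0 was an alternative. The steps were tested on simulated data.

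The sites and the tests were chosen with earlier results of these data known. The sites named follow a rule: the 10 of highest level, of smallest and of largest SD, those furthest from the rest in each tissue and line, those called or of smallest p for genotype, and those next to each limit; the shifted ends were picked after their values were seen, and not all are printed. Gene lists, cell type markers, poly(A) signals and the miR-22 locus were not analysed here, since no genome or annotation of mm9 was at hand.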

Additional observations from a re-analysis of the deposited data

Results flagged for a closer look

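At the chromosome 18 site at 36825568, called higher in knockout tissues, heart went against the other 5 tissues: its log2 ratio of knockout over wild type was -0.80, whereas the ratios of the other 5 were positive and reached 2.38. With 1 library per genotype in each tissue, the difference between heart and the other tissues was not tested.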

How the results depend on the processing

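The number of isolated sites depended on the rule's limits: 2058 with at least 10 tags in each library, 561 with at least 50, and 796 where no neighbour held 1%. The tissue term pairs the 2 libraries of a tissue, while the labels carry no replicate numbers; without this pairing block 0 isolated sites were called higher in knockout tissues, and leaving out each tissue pair gave 1 to 4, with 1 without the muscle pair. DESeq2's Wald test called 6 lower. Scaling to total nuclear tags gave 245 isolated sites 2-fold higher and 16 lower in knockout heart, 71 and 69 in knockout muscle, 23 lower in knockout liver and 28 lower in knockout lung; mESC then stood above the tissues at 103 sites and 3T3 at 70. With at least 50 tags per library, 64.0% of sites had 1 end. The cause of these changes was not tested, apart from fewer libraries or sites entering. Of the alternatives run at the chromosome 13 site, leaving out the tissue term was the one that ended its call. Over all alternatives, 87 values kept their call or stayed within the limits set for a shift (for counts 1.5 times), among them a median SD of 0.80 over the 6 tissues alone, 31 sites 2-fold higher in knockout liver and 37 sites below the tissues in 3T3, 15 counts or shares moved as given above, and 10 calls at the 3 named sites were lost.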
